A study of Mus musculus with 2 samples.

Results

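Among the 14103 TET2 peaks called in adipocytes, 861 lay in protein-coding exon sequence away from gene starts (6.11%, exact 95% binomial interval 5.72% to 6.51%). A peak was counted here if it was on an autosome, if its midpoint was more than 3 kb from every transcription start site (TSS) of the GENCODE M21 annotation, and if the midpoint fell inside the coding part of an exon of a protein-coding transcript. Of 13828 autosomal peaks, 6887 were more than 3 kb from any TSS, and the coding-exon peaks made up 12.5% of those (11.7% to 13.3%). They lay in 788 genes and 853 coding segments, where a coding segment is the translated part of 1 exon. The exons are internal to the gene in the sense of distance from its starts. By place in the transcript, 472 of the 861 peaks (54.8%) lay in a coding segment between the first and the last, 285 (33.1%) in the last, 53 (6.16%) in the first and 51 (5.92%) in the only coding segment. The set is therefore called coding-exon peaks below.

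Both libraries came from mouse inguinal white adipose tissue. Stem cells of the stromal vascular fraction were grown to passage 3, made into adipocytes in culture with IBMX, dexamethasone and insulin, fixed with formaldehyde and sonicated. One library was TET2 ChIP (n = 1) and the other was Input (n = 1), the same kind of chromatin without the antibody step. No genotype, knockdown or further treatment is given for either. The methods name male C57BL/6J mice, without tying a strain or an age to these cells. With 1 library a group there is no replicate, so peaks carry no test of their own here, and every interval covers counting error only. The deposited list gives each peak an interval and the −log10 p of the authors' peak caller, without the reads of either library. The sequencing yield of the experiment is stated as a total volume of paired-end data, not per library, and it was not used here.

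TET2 is a dioxygenase that oxidises methylated cytosine, mostly at CpG dinucleotides, to its hydroxymethyl form and beyond, a route by which DNA methylation is removed. It has no CXXC zinc finger of its own, the domain by which other TET proteins bind unmethylated CpG-rich DNA, and it is brought to chromatin largely by partner proteins. In mammals the bodies of transcribed genes are usually methylated, and CpGs have been lost from most of the genome through deamination of methylated cytosine. Coding exons keep more CpGs than the introns around them, because codons constrain the sequence.

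The 10 coding stretches printed here show how wide the range of base composition was. All are on the gene's strand, 5′ to 3′, in GRCm38 coordinates, with every CpG in capitals, and they stop at the ends of the coding segment or at 200 bases. The first 4 are from the 10 peaks with the largest −log10 p and lie in CpG-bearing exons of Tenm3 (teneurin, a transmembrane protein that guides synaptic wiring), Col6a2 (a chain of collagen VI), Alx4 (a homeodomain factor of limb and skull) and Soga1 (a microtubule-associated protein).
Tenm3 chr8:48228621-48228820, - strand: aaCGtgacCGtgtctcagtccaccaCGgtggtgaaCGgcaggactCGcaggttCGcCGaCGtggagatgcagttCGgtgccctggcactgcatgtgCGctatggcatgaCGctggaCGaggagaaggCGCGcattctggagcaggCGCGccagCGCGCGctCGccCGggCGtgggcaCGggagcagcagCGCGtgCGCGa
Col6a2 chr10:76614504-76614703, - strand: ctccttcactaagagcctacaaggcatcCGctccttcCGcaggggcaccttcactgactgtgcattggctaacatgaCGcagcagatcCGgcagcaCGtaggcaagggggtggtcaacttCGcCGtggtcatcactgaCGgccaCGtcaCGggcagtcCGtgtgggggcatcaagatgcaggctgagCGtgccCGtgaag
Alx4 chr2:93677359-93677558, + strand: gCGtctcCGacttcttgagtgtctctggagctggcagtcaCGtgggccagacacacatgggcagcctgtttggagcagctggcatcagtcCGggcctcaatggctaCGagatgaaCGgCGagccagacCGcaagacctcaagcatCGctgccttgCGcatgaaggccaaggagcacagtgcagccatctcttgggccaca
Soga1 chr2:157020840-157021039, - strand: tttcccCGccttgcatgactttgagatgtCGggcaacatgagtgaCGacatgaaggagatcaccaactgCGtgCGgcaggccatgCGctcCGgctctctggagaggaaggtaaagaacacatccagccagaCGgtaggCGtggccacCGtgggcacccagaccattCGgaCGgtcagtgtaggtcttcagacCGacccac
The next has the highest CpG ratio of all, in Asb18, an ankyrin repeat protein with a SOCS box, and the 2 after it lie in Prdm16, a zinc finger factor of the brown fat program, and Zfp423, a zinc finger factor of preadipocyte commitment.
Asb18 chr1:89968387-89968586, - strand: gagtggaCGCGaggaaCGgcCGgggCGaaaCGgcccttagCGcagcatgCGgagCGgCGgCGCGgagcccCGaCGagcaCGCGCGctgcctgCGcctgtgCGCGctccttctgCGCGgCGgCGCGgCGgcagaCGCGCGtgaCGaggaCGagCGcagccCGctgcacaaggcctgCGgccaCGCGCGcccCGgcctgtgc
Prdm16 chr4:154341012-154341211, - strand: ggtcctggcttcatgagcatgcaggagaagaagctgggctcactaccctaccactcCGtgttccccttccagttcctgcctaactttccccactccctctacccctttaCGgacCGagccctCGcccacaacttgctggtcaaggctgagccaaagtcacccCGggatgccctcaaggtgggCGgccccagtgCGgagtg
Zfp423 chr8:87780547-87780746, - strand: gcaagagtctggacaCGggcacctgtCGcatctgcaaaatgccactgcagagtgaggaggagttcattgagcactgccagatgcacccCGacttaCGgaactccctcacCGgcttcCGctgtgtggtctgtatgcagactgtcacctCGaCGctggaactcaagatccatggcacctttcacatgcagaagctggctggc
The last 3 are examples of a small GC-poor group described at the end, in Kap (kidney androgen-regulated protein), Selenop (the plasma selenium carrier) and Slc27a2 (a fatty acyl-CoA synthetase and transporter of liver and kidney).
Kap chr6:133850056-133850105, - strand: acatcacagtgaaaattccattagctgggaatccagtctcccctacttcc
Selenop chr15:3279508-3279707, + strand: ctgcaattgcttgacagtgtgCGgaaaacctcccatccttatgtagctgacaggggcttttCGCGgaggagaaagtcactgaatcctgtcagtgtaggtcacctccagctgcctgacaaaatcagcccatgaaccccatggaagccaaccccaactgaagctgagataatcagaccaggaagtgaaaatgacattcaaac
Slc27a2 chr2:126587760-126587933, + strand: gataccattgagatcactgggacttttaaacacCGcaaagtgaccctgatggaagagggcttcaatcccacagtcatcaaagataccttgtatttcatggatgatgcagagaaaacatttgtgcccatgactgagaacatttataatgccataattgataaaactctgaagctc
The Asb18 stretch held 38 CpGs in 200 bases and that of Tenm3 27. The Kap stretch, which is the whole coding segment of 50 bp, held 0.

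Coding sequence carried far more TET2 peaks per base than 3′ UTRs, introns and intergenic sequence, all taken more than 3 kb from any TSS. Other exon sequence was not compared. The autosomes hold 17.34 Mb of coding sequence more than 3 kb from any TSS, and the 861 peaks gave 49.7 per Mb (exact 95% Poisson interval 46.4 to 53.1). In 3′ UTRs the density was 12.3 per Mb (10.9 to 13.8), in introns 2.62 (2.51 to 2.73) and in intergenic sequence 3.13 (3.02 to 3.23). Coding exons thus stood 18.95 times above introns and 4.04 times above 3′ UTRs, and none of these intervals overlap that of coding exons.

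Part of that gap went with GC content. Over all windows, coding exons stood clear of introns in every GC class and of intergenic sequence below 70% GC. They stood clear of 3′ UTRs only from 55 to 65% GC. Under 50% GC the 3′ UTR was higher than coding exons, with 7.53 per Mb (6.32 to 8.91). The CpG ratio was not held alike in this comparison, and its median was 0.474 at coding-exon peaks and 0.267 at intron peaks. GC content can also differ between places within a class. GC content was taken in windows of 441 bp, the median length of these peaks, around each midpoint and around regularly spaced places of each kind. In coding sequence the density was 3.31 peaks per Mb where the window was under 50% GC, 16.2 at 50 to 55%, 112 at 55 to 60% and 482 at 60 to 65%. It was 786 per Mb at 65 to 70% and 694 at 70% and over, 2 values whose intervals overlap. Introns showed the same ascent from a lower base, with 1.46 per Mb under 50% GC, 30.6 at 55 to 60% and 169 at 60 to 65%. Within the 60 to 65% class, coding exons (432.8 to 534.9) stood above 3′ UTRs (256, 179 to 357), intergenic sequence (188, 170 to 207) and introns (169, 149.3 to 190).

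Repeats are unequally spread over these places, since intron peaks were 41.6% and intergenic peaks 69.3% repeat-masked at the median against 3.62% for coding-exon peaks. Where only windows under 10% repeat-masked were used, coding exons of 55 to 60% GC had 116 peaks per Mb (102 to 132), 3′ UTRs 56.7 (40.5 to 77.3), introns 23.6 (20.4 to 27.2) and intergenic sequence 30.3 (25.3 to 36.1). At 65 to 70% GC the coding-exon interval (691 to 1046) overlapped those of introns (342 to 756) and intergenic sequence (544 to 926). The spaced windows put only 0.052 Mb of introns and 0.081 Mb of intergenic sequence in that class. The error of these estimates is not in the intervals. Under 50% GC it was the 3′ UTR that held the most, 9.34 per Mb (6.996 to 12.2) against 4.10 (2.54 to 6.27) for coding exons, and these 2 intervals do not overlap. Whether the input library depends on GC content in the same way was not tested, since the reads were not analysed here.

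**Figure D1:**
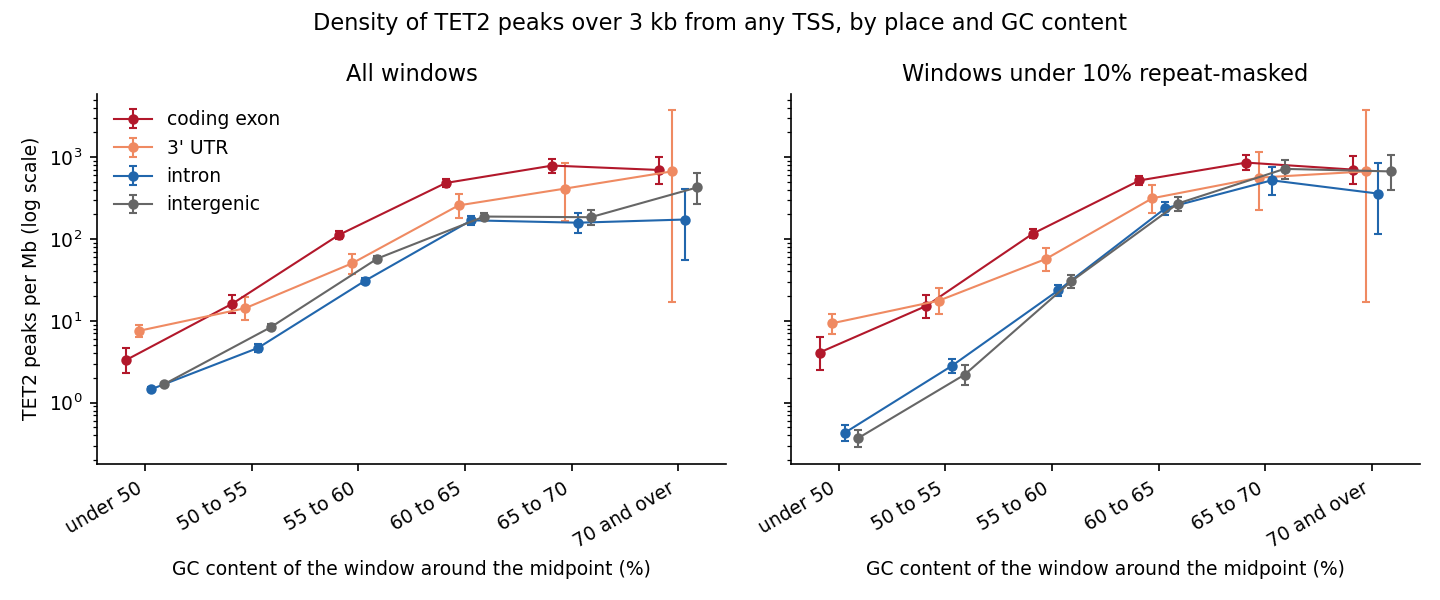
TET2 peaks per Mb (log scale) against the GC content of a 441 bp window for 4 kinds of sequence more than 3 kb from any TSS, in all windows (left) and in windows under 10% repeat-masked (right). Points are densities and bars exact 95% Poisson intervals; coding exons lead from 55 to 70% GC on the left (112 to 786 per Mb), and on the right their interval meets those of the other places from 65% GC.

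Place along the gene was uneven as well. Segments between the first and the last held 74.3% of the eligible coding bases and 54.8% of the peaks, a density of 36.6 per Mb (33.4 to 40.1). Last coding segments held 19.9% of the bases and 33.1% of the peaks (82.5 per Mb, 73.2 to 92.7). First coding segments far from a TSS reached 109 per Mb (81.8 to 143) and only coding segments 99.8 (74.3 to 131), with 53 and 51 peaks. The intervals of first, last and only segments overlap one another, and that of the segments between lies below all 3. The last exon of the transcript held 329 peaks (38.2%) and the first exon 2.

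With GC content held alike the difference between last and middle segments depended on the class. Under 50% GC last segments had 6.64 peaks per Mb (3.43 to 11.6) and middle segments 2.64 (1.63 to 4.03), and at 50 to 55% GC they had 21.3 (12.2 to 34.6) and 13.7 (9.603 to 18.98). In both classes the intervals overlap. At 55 to 60% GC last segments had 151 peaks per Mb (121 to 186) and middle segments 99.8 (85.8 to 116), and the 2 intervals do not overlap. At 60 to 65% GC the densities were 477 (392 to 574) and 447 (385 to 516), with overlapping intervals. The order was reversed at 65 to 70% GC, with 731 (535 to 975) for last and 801 (567 to 1099) for middle segments. So it was at 70% and over, with 556 (304 to 932) and 881 (422.5 to 1620). In these 2 classes the intervals overlap as well. Along the coding sequence the density was 43.1 per Mb in the first 20% of its length, 40.1 in the next 20%, then 49.98, 53.4 and 57.9 in the last 20%. Among windows of at least 55% GC the same stretches gave 233, 193, 237, 219 and 225 per Mb, with every interval overlapping every other.

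Exons under the peaks were long. The coding segment at a peak had a median length of 471 bp (quartiles 237 and 1016, longest 10374), while the median eligible coding base lay in a segment of 182 bp (127 and 505). Segments under 200 bp held 55.5% of the eligible bases and 17.3% of the peaks (14.8% to 20%). Those of at least 1000 bp held 15.6% of the bases and 25.3% of the peaks (22.4% to 28.4%).

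Density did not climb with length throughout. It was 10.0 peaks per Mb in segments under 100 bp, 8.44 at 100 to 149 bp, 27.5 at 150 to 199 bp and 62.8 at 200 to 299 bp. The highest value, 145.5 (123 to 171), was reached at 300 to 499 bp, followed by 121 at 500 to 999 bp and 112 at 1000 to 1999 bp, whose intervals meet or overlap. Segments of 2000 bp and over fell back to 43.1 per Mb (32.3 to 56.4). Within 55 to 60% GC the density was 68.0 per Mb (53.8 to 84.7) under 200 bp, 185 (153 to 222) at 200 to 499 bp, 120 (84.7 to 166) at 500 to 999 bp, 148.8 (107 to 201.1) at 1000 to 1999 bp and 75.7 (42.4 to 125) at 2000 bp and over. At 60 to 65% GC the same classes had 254 (182 to 345), 545 (446 to 658), 690 (559 to 841), 589 (469 to 730) and 263 (168 to 391) peaks per Mb. In both GC classes the intervals of the 3 middle length classes overlap.

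**Figure D2:**
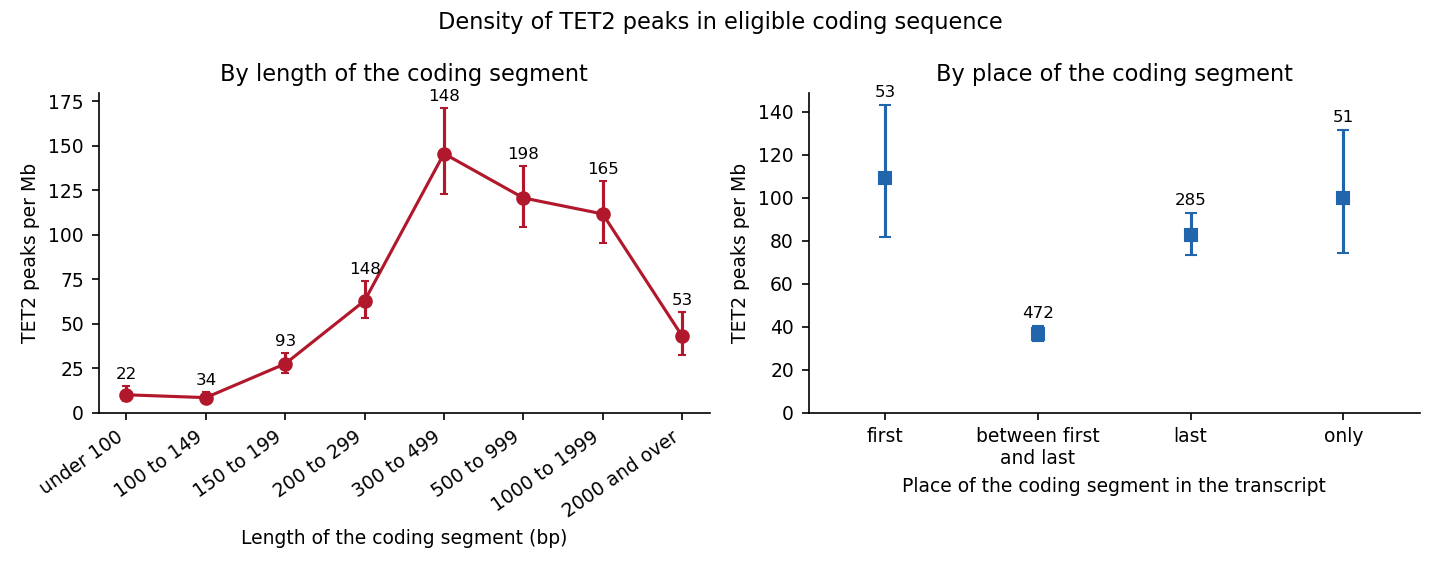
TET2 peaks per Mb of eligible coding sequence by length of the coding segment (left) and by its place among the coding segments of the transcript (right). Points are densities, bars exact 95% Poisson intervals and numbers the peaks in each class; the left panel peaks at 145.5 per Mb for 300 to 499 bp, and on the right segments between the first and the last are lowest at 36.6.

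Since peaks were 375 to 1389 bp long, many were wider than the exon. In 443 cases (51.5%) the coding segment was shorter than the peak, in 311 (36.1%) it lay wholly inside it, and 267 peaks (31.0%) were wholly coding. The coding share of a peak had a median of 78.5%. For 304 peaks wider than a coding segment between the first and the last, the midpoint lay a median of 9.5 bp downstream of the segment's centre (quartiles 33.5 bp upstream and 52.75 bp downstream), in segments with a median of 228.5 bp. The midpoint rule requires the midpoint to be coding, so some centring is built in.

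The longest segments give an idea of the large exons involved. Eppk1, the cytolinker epiplakin, has a single coding segment of 10374 bp and 1 peak at −log10 p 7.63. Map1a (microtubule-associated protein, 8104 bp, −log10 p 4.15) and Spen (a transcriptional corepressor of X inactivation and Notch targets, 8020 bp, 6.92) came next. After them stood Ankrd11 (6518 bp), Son (5970 bp), Rai1 (5511 bp), Zfhx3 (5454 bp), Macf1 (5331 bp), Hivep2 (5139 bp) and Apc2 (4990 bp). Their −log10 p ran from 4.41 in Apc2 to 8.31 in Son, and Ankrd11 and Zfhx3 each had another coding-exon peak.

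Base composition set the peaks apart from windows centred on coding bases. Peaks had a median GC content of 60.5% (quartiles 58.1% and 62.8%), against 47.9% (41.7% and 53.7%) over windows spaced along the eligible coding sequence. A window of at least 55% GC was found at 769 peaks, or 89.3% (87.1% to 91.3%), and at 20.04% of coding windows. Conversely 34 peaks (3.95%) and 59.3% of coding windows were under 50% GC. Called peaks sit where the signal is locally highest while the spaced windows do not, which the comparison leaves in place. The 441 bp windows also take in noncoding flanks, since 55.5% of the eligible coding bases lay in segments under 200 bp. Their coding share was not measured, while that of the peaks had a median of 78.5%. How much of the contrast goes with flanks was not tested. Coding bases alone are compared by codon position below.

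CpG dinucleotides were more frequent too. The CpG ratio, the CpGs counted over those the C and G content would give, had a median of 0.474 at peaks (0.360 and 0.615) against 0.285 (0.190 and 0.395) in coding windows. Peaks held 4.22 CpGs per 100 bp at the median and coding windows 1.59. The usual criteria of a CpG island, at least 200 bp with 50% GC and a ratio of 0.6, were met by 233 peaks (27.1%, 24.1% to 30.2%) and by 2.72% of coding windows. So most of these peaks lay below the island thresholds. The coding windows of these comparisons include the same noncoding flanks.

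With GC content held alike, density still differed with the CpG ratio. At 55 to 60% GC it was 39.1 peaks per Mb (28.6 to 52.1) below a ratio of 0.3, 131 (110 to 154) at 0.3 to 0.5, 292 (231 to 363) at 0.5 to 0.7 and 535 (331 to 818) at 0.7 and over. At 60 to 65% GC it was 242 (177 to 324), 499 (426 to 580), 735 (605 to 884) and 488 (319 to 715), the last of which overlaps all the others.

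**Figure D3:**
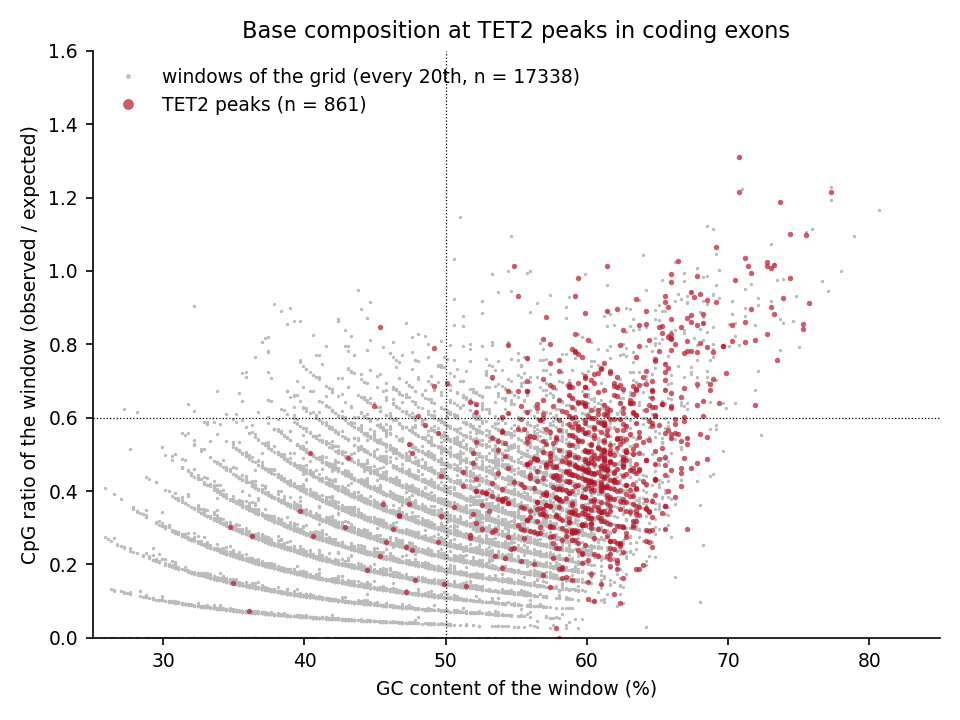
CpG ratio against GC content of 441 bp windows at 861 TET2 peaks (red) and at every 20th window centred on eligible coding bases (grey). Windows can include noncoding flanks. Dotted lines mark the CpG island criteria of 50% GC and a ratio of 0.6. The red points lie mostly between 55 and 70% GC (739 of 861), and 34 lie under 50%.

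The highest CpG ratio was that of Asb18 on chr1:89968245-89968730, with 84 CpGs, 75.9% GC and a ratio of 1.199 at a −log10 p of 4.84. It was followed by Otud7a (a deubiquitinase, 1.17), Zfp771 (a zinc finger protein, 1.14), Apba1 (a neuronal adaptor of vesicle release, 1.09), Cacna1a (the P/Q-type calcium channel, 1.09) and Disp3 (a sterol-sensing relative of Dispatched, 1.08). Siglec15 (a sialic acid lectin of osteoclasts, 1.06), Neurl1b (a ubiquitin ligase of Notch ligands, 1.06), Sptbn4 (a spectrin of the axon initial segment, 1.05) and Npas3 (a bHLH-PAS factor, 1.02) completed the 10. Their −log10 p ran from 3.92 in Sptbn4 to 9.14 in Otud7a, so a high CpG ratio did not go with an outstanding score among them.

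The surplus of GC was present at all codon positions and widest at the third. Coding bases under peaks had 64.0% GC at position 1, 51.2% at position 2 and 72.0% at position 3, while all eligible coding bases had 54.3%, 41.4% and 55.6%. The CpGs themselves were spread over the codon alike in both: 33.4%, 26.2% and 40.4% of them began at positions 1, 2 and 3 under peaks, against 35.1%, 24.8% and 40.1% in all eligible coding bases.

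Short motifs differed less from coding windows of like GC content, between 55 and 65% GC, than from all coding windows. Each was searched on both strands within 100 bp of the midpoint. The GC box GGGCGG, the recognition letters of Sp and Klf factors, was found at 151 peaks (17.5%, 15.1% to 20.3%) and in 4.66% of coding windows. Within the 60 to 65% GC class the shares were 16.2% (12.5% to 20.5%) and 16.6%, and at 55 to 60% GC they were 15.9% (11.9% to 20.6%) and 9.19%. The letters TTNNGNAAN, a loose form of the C/EBP site, were found at 10.6% of peaks and in 33.7% of windows, and at 8.24% (5.59% to 11.6%) and 10.6% within 60 to 65% GC. For GCCNNNGGC, the AP-2 letters, the overall shares were 20.8% and 6.42%, within 60 to 65% GC 23.6% (19.2% to 28.4%) and 19.3%, and at 55 to 60% GC 17.99% (13.7% to 22.9%) and 12.9%. At 55 to 60% GC the window shares of the GC box and of the AP-2 letters both lie below the interval of the peaks. These motifs are descriptions of letters and not of binding sites.

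Coding-exon peaks had a higher median score than other distant peaks. Their −log10 p had a median of 7.07 (quartiles 6.01 and 8.51) and ran from 3.28 to 36.6. The medians were 6.62 for 3′ UTR peaks, 6.18 for intergenic, 5.91 for intron and 6.80 for peaks within 3 kb of a TSS, with 6.21 over the whole list. A score of 10 or more was reached by 101 (11.7%, 9.66% to 14.1%) and by 8.67% of all peaks, while 76 (8.83%) were under 5, the −log10 of the p of 1e-05 stated as the caller's setting. Scores under 5 conflict with that setting, and the lowest of the whole list was 3.07. The reason for this conflict was not tested. From 55 to 70% GC the class medians were 7.05 to 7.19, and they were 6.27 under 50% GC and 8.12 at 70% and over.

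Apart from Kap and Selenop, the highest scores came from GC-rich or intermediate exons. Tenm3 led with 17.1 in its last coding segment, number 29, where 91.1% of the peak was coding and the CpG ratio was 0.896. It had a further peak of 7.37 in coding segment 11. Col6a2 reached 16.8 in coding segment 2 of 27 and 9.51 in the last. Alx4 stood at 16.4 in its last coding segment, Soga1 at 16.3 in segment 14 of 15, and Arhgap21 (a GTPase-activating protein) at 15.6 in the last of 25, with 50.1% GC. Oprd1 (the delta opioid receptor) had 14.9, Gpr20 (an orphan receptor of a single coding segment) 14.9, and Inmt (indolethylamine N-methyltransferase) 14.8. Tenm3 ranked 71 of all 14103 peaks and Inmt 124.

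Most members were unique in the genome. In 830 of 861 (96.4%) no second stretch of at least 100 bp and 90% identity was found, and 2 were at least 50% repeat-masked. The largest numbers of matches belonged to Fetub (7293), Piezo1 (70) and Wdr41 (16), for which a read's place is uncertain. A check against a set of RefSeq starts found 26 of 838 peaks (3.10%) within 3 kb and 13 within 1 kb. So a few may lie near starts that GENCODE M21 does not hold. The set had no start on chromosome 18, whose 23 peaks were left out, and it lacked starts of some host genes. The peak of Jph1 lay 6049 bp from its own GENCODE start and 1054062 bp from the nearest start of the set. The check can therefore miss peaks near other RefSeq starts.

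Peaks were spread thinly over genes: 721 of the 788 host genes had 1, 61 had 2 and 6 had 3. Of 10311 genes with at least 441 eligible coding bases, 742 held a peak, a background of 7.2%. A peak within 1 kb of any annotated transcript start of the gene was present in 37.1% of the 742 (33.6% to 40.7%). Among the 9569 others the share was 29.3% (28.4% to 30.2%). Neither the number of starts per gene nor GC content was held alike in this comparison. The genes with 3 peaks included Bcl11b (a zinc finger factor of T cells and neurons), Glis1 (a Krüppel-like zinc finger factor), Pcnt (the centrosomal scaffold pericentrin), Sh3rf1 (a scaffold of JNK signalling) and Tbc1d1 (a Rab GTPase-activating protein of insulin-stimulated glucose uptake). In Glis1 the peaks were in coding segments 3, 6 and 10 of 10 with −log10 p 7.05, 6.21 and 7.16, and in Tbc1d1 in segments 2, 5 and 21 of 21 with 4.12, 4.12 and 6.63. In Bcl11b the last segment of 2012 bp held 2 of them (4.75 and 5.50). Over all genes, 8 coding segments held 2 peaks.

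Gene families differed in how many members were hosts. Chosen by symbol, homeobox, T-box, Fox and Sox genes had a peak in 11 of 50 (22.0%, 11.5% to 36.0%), which lies above the 7.2% of all genes, and so did chromatin remodellers in 6 of 27 (22.2%, 8.62% to 42.3%). C2H2 zinc finger genes had one in 39 of 359 (10.9%, 7.84% to 14.6%), also above it. Intervals that include the background were those of potassium, sodium and calcium channels (11 of 94, 11.7%), axon guidance genes (6 of 46, 13.04%), collagens (3 of 42, 7.14%), histone modifiers (3 of 44, 6.82%) and transporters of the Slc and Abc families (17 of 316, 5.38%). Olfactory, vomeronasal and taste receptor genes had a peak in 1 of 190 (0.526%, 0.0133% to 2.90%).

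Counted per Mb of windows of at least 55% GC, the zinc finger genes had 346 peaks (247 to 471), homeobox and related genes 333 (160 to 612), remodellers 458 (198 to 903) and transporters 159 (87.0 to 267). Over all eligible coding windows of that GC content it was 221 (206 to 237), below the interval of the zinc finger genes and inside the intervals of homeobox and related genes, remodellers and transporters. The receptor family had 0.00395 Mb of such sequence and its 1 peak was in it.

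The adipocyte lists had few genes with enough eligible sequence, and their intervals all include the 7.2% of all genes. Of the lipid synthesis, storage and lipolysis list, 2 of 16 such genes had a peak (12.5%, 1.55% to 38.3%), Acacb (the mitochondrial isoform of acetyl-CoA carboxylase, −log10 p 9.72, coding segment 20 of 52) and Srebf2 (the activator of cholesterol synthesis, 7.34, segment 3 of 19). Of the adipogenic factors it was 4 of 18 (22.2%, 6.41% to 47.6%). These were Prdm16 (8.09, segment 9 of 17), Ncoa2 (a nuclear receptor coactivator, 7.91, segment 9 of 21), Zfp423 (7.79, segment 4 of 8) and Ppargc1b (a coactivator of oxidative metabolism, 3.86, segment 9 of 13). All 4 lay in coding segments of 808 to 3215 bp. In the insulin and leptin list it was 0 of 9 (upper bound 33.6%), and Irs2 (insulin receptor substrate), which has less eligible sequence than that limit, had a peak of 5.35 at 3024 bp from a TSS.

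The 34 peaks under 50% GC were also described by themselves. They had a median −log10 p of 6.27 (4.05 to 36.6) and a median CpG ratio of 0.304, against 7.07 and 0.477 for the other 827. Kap on chr6:133849883-133850321 had the largest score of all coding-exon peaks, 36.6, rank 29 of the whole list, with 34.9% GC and 2 CpGs in the peak. Selenop followed with 19.1 at 42.2% GC, then Cyp4b1 (a fatty acid hydroxylase) with 14.8, Ldhb (lactate dehydrogenase B) with 13.4 and Vwa8 (a mitochondrial protein) with 11.99.

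Of these 34 peaks, 12 lay in genes known from the kidney. Besides Kap and Cyp4b1 they included Slc7a13 and Slc22a8 (transporters of the tubule), Mep1a (a brush border metalloprotease), Kl (klotho), Lrp2 (megalin, the endocytic receptor of the proximal tubule), Glyat (glycine N-acyltransferase), Ugt2b38, Ugt3a2, Slc27a2 and Spp1 (osteopontin). A list of 60 kidney genes was written after these peaks had been seen, so it is no independent evidence, and it holds 4 of the other 827 peaks. Among 52 genes of the list with exon sequence more than 3 kb from any TSS, 22 held a TET2 peak in such an exon, UTRs included (42.3%, 28.7% to 56.8%), and 16 held one under 50% GC. Over all 15853 protein-coding genes the corresponding backgrounds were 6.74% and 1.07%.

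Leaving out the 13 listed genes whose peaks had been seen first, 9 of 39 had an exon peak (23.1%, 11.1% to 39.3%), and 4 (10.3%) had one under 50% GC, against 30.8% in the full list. None of the 39 held a coding-exon peak under 50% GC, which follows from leaving out all 12 that did. They included Acsm2, Aqp2, Cyp2j5, Fbp1, Pck1, Pdzk1, Slc12a1 and Slco1a1. No such peak was listed in Umod, Nphs1, Slc34a1, Slc5a2, Cubn or Cdh16, which also define kidney cells. Lists of the same kind written for other tissues gave 3 of 44 genes for liver (6.82%, 1.43% to 18.7%), 4 of 39 for adipocytes (10.3%, 2.87% to 24.2%) and 4 of 39 for skeletal muscle (10.3%).

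The kidney list was drawn up partly from exon peaks, so a surplus of exon over intron peaks in it is built in. An intron peak more than 3 kb from a TSS was found in 2 of its 52 genes, against 22 with an exon peak. Without the 13 genes seen first it was 1 of 39 against 9. The liver list had 2 genes with an intron peak and 3 with an exon peak, and the adipocyte and muscle lists each had 2 and 4. Over all protein-coding genes 1466 had one in an intron and 1069 in an exon. The 3′ UTR of Gpx3, the plasma glutathione peroxidase made in the proximal tubule, carried the highest score among the exon peaks of the list, 104.7, and that of Slc12a1 (the loop diuretic target of the thick ascending limb) 15.9. Some of these genes are also active in other tissues, Pck1 and Spp1 among them. GEO's labels give both libraries as adipocytes from inguinal fat, and the part of any other tissue or of transcribed sequence in these values was not tested.

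**Figure D4:**
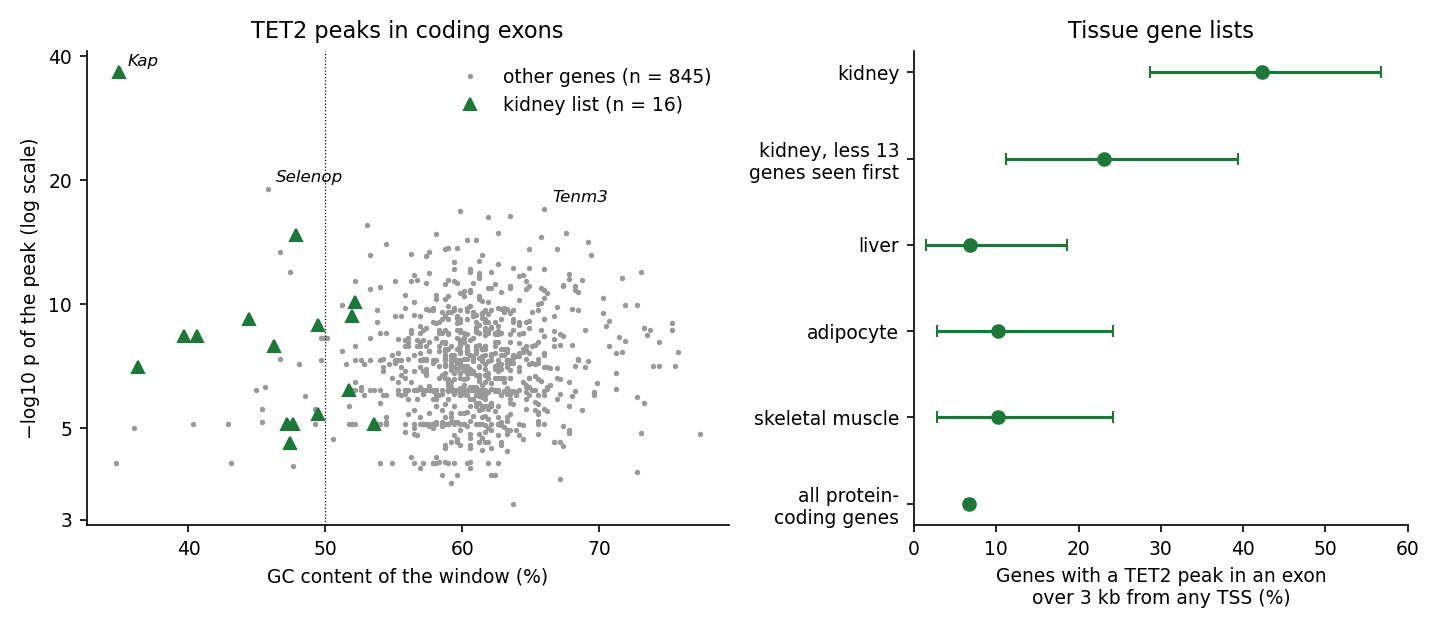
Left, −log10 p (log scale) against window GC content for 861 TET2 peaks in coding exons, with the 16 in genes of the kidney list as green triangles; 12 of the 16 lie under 50% GC (dotted line). Right, share of genes with a TET2 peak in an exon more than 3 kb from any TSS for each list, with exact 95% binomial intervals: 42.3% for kidney, 23.1% without the 13 genes seen first, and 6.74% for all protein-coding genes. All tissue lists were written after these peaks had been seen, and the kidney list partly from them, so its share is no independent evidence.

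The chromosomes lowest and highest in density also differed in GC content. Coding-exon peaks per Mb ran from 20.2 on chromosome 3 (11.8 to 32.4) to 72.0 on chromosome 8 (55.5 to 92.0). Windows of at least 55% GC made up 10.5% of the eligible coding sequence of chromosome 3 and 26.6% of that of chromosome 8. Among such windows the densities were 136 per Mb (70.2 to 237) and 241 (183 to 312), whose intervals overlap. Other chromosomes went the other way. Chromosome 11 had the highest share of such windows, 28.6%, and 167 peaks per Mb of them (127 to 214), while chromosome 13 had the lowest share, 10.2%, and 367 per Mb (239 to 537), and chromosome 16 had 377 (256 to 536).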

How the data were processed

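TET2 ChIP and input DNA from cultured mouse adipocytes (n = 1 each) were sequenced. The authors removed poor reads and adapters with NGS QC Toolkit, aligned reads with bowtie1 and called peaks against the input with MACS2, version 2.1.0 in the submitters' processing notes. The deposited list gives intervals and the −log10 p of each peak. The notes name mm10 and the methods another mouse build; GRCm38 (mm10) with GENCODE M21 was used, and no coordinates were converted. Read totals, the input by itself and fold enrichment were not analysed here.

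Midpoints were set against transcript starts and coding segments, each taken from the transcript with the longest coding sequence. Spaced windows of 441 bp stood every 50 eligible coding bases, every 500 bases of 3′ UTR and every 1000 bases elsewhere. Shares have exact 95% binomial and densities exact 95% Poisson intervals. The Mb in each class of GC content were estimated from the spaced windows, and the intervals leave out the error of that estimate. Genome matches were counted with blastn 2.17.0, statistics with Python 3.11.15, numpy 2.4.6, pandas 2.3.3 and scipy 1.17.1, and figures with matplotlib 3.10.9. Placement and motif search were tested on simulated data.

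Named genes were the 10 with the largest −log10 p, the longest segments and the highest CpG ratio, all with 3 peaks, and those of the adipocyte lists or the paper. Some genes that the rule or a list names are not reported here. Other genes were chosen after their values were seen. Members and lists were chosen with earlier results of these data known, and the tissue lists after these peaks had been seen. Alternatives were score limits, other start sets and distances, coding share, transcript choice, window and motif.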

Additional observations from a re-analysis of the deposited data

How the results depend on the processing

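All values compared below are for the coding-exon peaks, with 1 setting changed at a time. With peaks of −log10 p at least 8 there were 272 peaks in 268 genes, the median score was 9.52 and 21.7% lay in segments of at least 1000 bp, and with at least 5 the median score was 7.34. With 1 TSS per gene in place of every transcript's start there were 1350 peaks in 1224 genes, 26.7% in the last coding segment, with a median GC content of 60.9%. Choosing peaks with at least 50% of their bases coding gave 51.2% between the first and the last segment, a median segment of 599 bp, 30.2% in segments of at least 1000 bp, 61% GC, a CpG ratio of 0.492 and 30.6% meeting the island criteria. In 200 bp around the midpoint the medians were 63% GC and a CpG ratio of 0.52. The GC box share was 8.48% within 50 bp and 0.929% for GGGGCGGGG. The other values stayed within the interval of the reported one, or within 1.5 times a reported count, and these include a distance of 5 kb (47.2 per Mb), basic transcripts (49.5 per Mb), peaks with a single genome match that were also under 50% repeat-masked, and 2 settings chosen after seeing the data, without the kidney list (845 peaks) and without peaks under 50% GC (827 peaks). No paired analysis was possible because each group has 1 library. The reads of each library were not used, so detection limits are not given, and a place without a peak may hold TET2 below detection.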
